A study of Mus musculus with 6 samples.

Results

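The genes described here are 10 that make, refill, admit or read the calcium signal of the egg: Itpr1, Atp2a2, Stim1, Orai1, Trpm7, Trpv3, Cacna1h, Camk2g, Camk2d and Ppp3ca. They were chosen by name for these roles, with earlier results of these data known. All 10 had a row in each of the deposited tables of read counts per gene, which held 14165 genes for pooled oocytes and 54658 for single oocytes. All libraries came from mouse oocytes in metaphase II (MII), in which an ovulated egg rests until a sperm arrives. Smart-seq2, which copies polyadenylated RNA over its full length and amplifies it by PCR, gave the libraries. One sample held 35 single oocytes labelled young and another 59 labelled aged, both untreated as far as the labels say. The remaining samples were 4 pools, each of 10 young oocytes: 2 received a control siRNA (siCtrl) and 2 an siRNA targeting Plat (siPlat), the gene of tissue-type plasminogen activator. The labels gave no strain, age in weeks or animal of origin, so the spread between pools may be technical.

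At fertilisation the sperm delivers a phospholipase C that makes inositol trisphosphate (IP3) in the egg. IP3 opens receptor channels in the endoplasmic reticulum, calcium leaves this store, and repeated waves cross the cytoplasm. Each wave needs the store to be refilled by pumps fed from channels in the plasma membrane. Calmodulin then passes the signal to a kinase, CaM kinase II, and a phosphatase, calcineurin, and the kinase starts the exit from MII arrest.

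Of the aged oocytes, 21 stood apart from all others and are kept separate below. Mitochondrially encoded genes took 6.78 to 61.6% of their gene counts, against 0.947 to 2.97% in the other 38 aged oocytes and 0.688 to 1.92% in the young. No oocyte lay between 2.97 and 6.78%, and the split was set at 5%. The summed level of 12 oocyte markers was 816 to 3362 CPM (counts per 1e6 gene counts) in the 21 oocytes, 15632 to 26402 CPM in the other aged and 15425 to 26656 CPM in the young, so those 21 were low in markers of the cell type their label gives. Cumulus and granulosa markers summed to at most 105 CPM in a young, 89.0 CPM in another aged and 32.9 CPM in one of the 21 oocytes, and blood and immune markers to at most 33.1, 39.8 and 173 CPM. The stroma, theca and endothelium markers summed to 103 to 234 CPM in young, 75.9 to 178 CPM in other aged and 0 to 45.5 CPM in the 21 oocytes. Single oocytes held 5480050 to 11894782 gene counts when young, 3399781 to 9502184 in the 38 and 2018226 to 8648061 in the 21. In the pools, with 12142884 to 17475952 gene counts, the level of Plat was 441 and 439 CPM with siCtrl but 51.4 and 39.0 CPM with siPlat (log2 fold change -3.28, SE 0.19, edgeR adjusted p = 6.21e-06).

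In young oocytes the gene of the calcium-activated kinase and that of the store pump led. Per kilobase of exon, Camk2g stood highest at 123 CPM, ahead of Atp2a2 at 71.9, Itpr1 at 7.56, Trpm7 at 5.63, Ppp3ca at 3.97, Orai1 at 2.22, Cacna1h at 1.14, Trpv3 at 0.920, Stim1 at 0.531 and Camk2d at 0.0653 CPM per kilobase. Between Atp2a2 and Itpr1 the ranges over oocytes did not overlap, with every Atp2a2 value at 39.9 or above and every Itpr1 value at 11.2 or below. Every other pair of neighbours overlapped in range. Within single oocytes, Camk2g exceeded Atp2a2 in 28 of 35, Itpr1 exceeded Trpm7 in 27 and Cacna1h exceeded Trpv3 in 21, so the order of those neighbours varied from oocyte to oocyte. Among the 7 members at 5 CPM or more the median coefficient of variation over young oocytes was 0.316, against 0.271 over the 8230 genes at that level.

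Most of the 10 have close relatives, and the relatives differed in level. Among IP3 receptors the type encoded by Itpr2 had more RNA per kilobase than Itpr1, at 26.4 against 7.56 CPM per kilobase, and Itpr3 was at 0.366. Stim2 exceeded Stim1, at 8.78 against 0.531, and Orai3 was near Orai1, at 2.02 against 2.22. In the CaM kinase II and calcineurin families Camk2g and Ppp3ca had the highest levels. Of the CaM kinase II genes Camk2a was at 0.0314 and Camk2b at 0.0216 CPM per kilobase, and of the calcineurin catalytic subunits Ppp3cb was at 1.06 and Ppp3cc at 1.48, against 3.97 for Ppp3ca. These relatives, other than Itpr2 and the genes called in the pools, were picked after their values were seen. Reads can be split between near copies only where sequence is shared. None of the stretches of 50 bases in the longest Camk2g, Camk2d, Ppp3ca, Stim1, Orai1, Trpm7 or Trpv3 coding transcript occurred in a transcript of another gene. The share, with matches counted on either strand, was 2.03% for Itpr1, 5.43% for Atp2a2 and 1.34% for Cacna1h. Their main partners were Gm44101, Gm30970 and Tpsg1. For Itpr1 and Cacna1h the main partner is a gene whose exons overlap theirs. Exons of Itpr1 overlap those of Gm44101 and Gm44040 on the opposite strand, as those of Atp2a2, Orai1 and Cacna1h do with Gm43361, Gm2479 and Tpsg1. Whether the authors counted by strand is not stated in the sources, so reads of such stretches cannot be told apart.

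**Figure D1:**
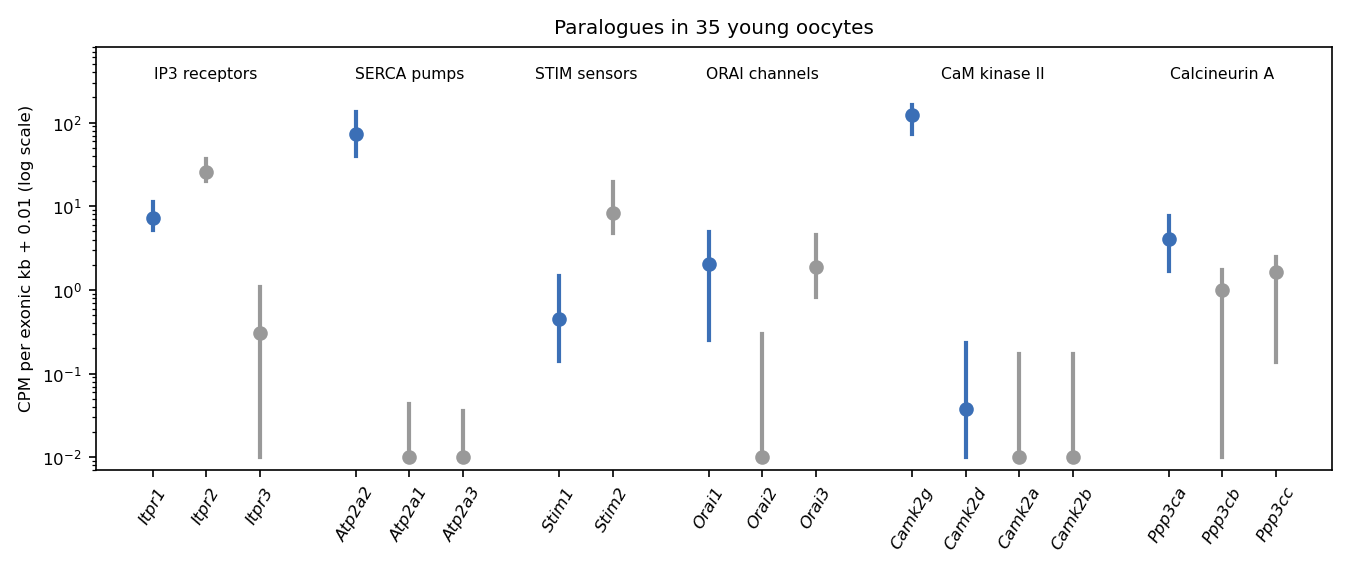
Level per exonic kilobase (CPM per kb + 0.01, log axis) of 6 gene families in 35 young oocytes. Points are medians over oocytes and lines run from the lowest to the highest oocyte; blue marks the genes described here and grey their relatives. Camk2g and Atp2a2 stand above their relatives, while Itpr2 lies above Itpr1 and Stim2 above Stim1.

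The release channel came first in the path of the signal. Itpr1 (chromosome 6, 108213096 to 108551109, GRCm38) encodes the IP3 receptor best known for calcium release in mammalian eggs. Its level was 50.7 to 111 CPM in young oocytes, with a median of 71.7, and 56.0 to 136 CPM in the 38 aged oocytes of low mitochondrial share, with a median of 94.8. The ranges overlapped widely, with 9 of the 38 above the highest young oocyte and none below the lowest. In the 21 oocytes of high share it ran from 7.90 to 139 CPM, with a median of 48.7, and 12 of the 21 lay under every one of the 38. Itpr2 had a median of 304 CPM in young oocytes, 378 CPM in the 38 and 169 CPM in the 21.

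The pump gene Atp2a2 (chromosome 5, 122453513 to 122502225) encodes SERCA2, which draws calcium back into the endoplasmic reticulum. It was at 210 to 707 CPM in young oocytes, with a median of 381, and at 242 to 772 CPM in the 38 aged oocytes, with a median of 540. Only 3 of the 38 exceeded every young oocyte, so here too the groups overlapped. Atp2a2 levels were higher in oocytes with fewer gene counts per ERCC count, ERCC being synthetic RNA added to each lysate, with a Spearman rho of -0.64 over 35 young and -0.79 over 38 aged oocytes, where both measures come from the same library. Gene counts per ERCC count had a median of 63.7 in young and 29.5 in the 38 aged oocytes, and the part of this in the higher aged level was not tested. In the 21 oocytes Atp2a2 was at 47.7 to 494 CPM, median 139, and 15 of the 21 lay below the lowest of the 38. Atp2a2 was also the only member with a cytoplasmic polyadenylation motif, TTTTAT or TTTTAAT on the sense strand, in the last 100 bases of its longest coding transcript, where 17.8% of 19829 genes had one. Proteins that bind this motif are known to lengthen poly(A) tails as oocytes mature, and the libraries were made from polyadenylated RNA, so the site is shown with the motif in capitals, from GENCODE M21 on GRCm38 chromosome 5, minus strand, 84 bases before the transcript's end.
Atp2a2 site: atgtctaatgtaTTTTATtgtaacagacat
A match in these letters is a description and not a site shown to be used.

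Stim1 (chromosome 7, 102267806 to 102437319) encodes the sensor that detects an empty store, and Orai1 (chromosome 5, 123015074 to 123030456) the plasma membrane channel that the sensor opens. Stim1 was at 0.587 to 6.53 CPM in young oocytes, median 1.94, and at 0 to 6.69 CPM in the 38, median 2.20. Orai1 was at 0.452 to 9.30 CPM in young, median 3.79, and at 0 to 8.23 CPM in the 38, median 3.46. In the 21 oocytes Stim1 was at 0 to 21.0 CPM, median 0.178, with no count in 10 and 3 above every one of the 38. Its summed level was 2.41 CPM in the 21, against 2.10 CPM in the 38 and 2.36 CPM in young oocytes, and 1.47 CPM without the 1 oocyte that gave 41.8% of the counts. Orai1 was at 0 to 12.4 CPM in the 21, median 0, with no count in 13, and its summed level was 0.997 CPM, or 0.449 CPM without the 1 oocyte that gave 58.3% of the counts. With every oocyte thinned to 2000000 gene counts, 7 of the 21 had a Stim1 count and 5 an Orai1 count, against 33 and 37 of the 38 and 35 and 34 of the 35 young.

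Of the remaining entry channels, Trpm7 had the highest level and Trpv3 the lowest per kilobase. Trpm7 (chromosome 2, 126791565 to 126876230) encodes a channel fused to a kinase that admits divalent cations, and Trpv3 (chromosome 11, 73267388 to 73300363) a cation channel known in mouse eggs at MII. Their starts differ in CG pairs. The RefSeq windows (GRCm38.p6) from 250 bases before to 50 after the start are shown for this contrast. They run 5′ to 3′, with each CG pair in capitals.
Trpm7, chr2:126876212-126876511, minus strand: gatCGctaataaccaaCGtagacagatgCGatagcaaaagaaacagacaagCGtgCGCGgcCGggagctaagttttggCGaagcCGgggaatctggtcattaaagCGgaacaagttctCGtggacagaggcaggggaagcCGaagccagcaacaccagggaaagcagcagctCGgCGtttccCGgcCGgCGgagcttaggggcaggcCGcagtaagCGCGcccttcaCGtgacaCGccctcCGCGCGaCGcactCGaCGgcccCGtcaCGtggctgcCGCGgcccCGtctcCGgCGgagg
Trpv3, chr11:73267270-73267569, plus strand: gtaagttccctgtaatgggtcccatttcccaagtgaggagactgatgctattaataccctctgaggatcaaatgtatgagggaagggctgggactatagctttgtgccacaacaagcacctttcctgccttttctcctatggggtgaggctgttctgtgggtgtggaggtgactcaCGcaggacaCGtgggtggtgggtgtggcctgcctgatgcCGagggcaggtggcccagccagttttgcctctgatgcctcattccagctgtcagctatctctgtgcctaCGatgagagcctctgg
The Trpm7 window held 35 CG pairs and 63.7% G or C, more CG pairs than 93.0% of the 32851 windows in the table. The Trpv3 window held 4 CG pairs and 54.7% G or C, more than 31.4% of them, and the median over all was 7. Windows were given for 5 members, and those of Orai1, Stim1 and Camk2d held 36, 38 and 31 CG pairs. Per kilobase in young oocytes, Orai1 (2.22 CPM) lay above Trpv3 (0.920), but Stim1 (0.531) and Camk2d (0.0653) lay below it. The number of CG pairs thus did not order these 5 by level. CG content is a property of the reference, and no measurement here shows which start was used.

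Trpm7 was at 20.4 to 58.6 CPM in young oocytes, median 40.1, at 24.8 to 97.2 CPM in the 38, median 47.5, and at 1.43 to 116 CPM in the 21, median 41.3. Its level thus spread in the 21 oocytes while its median stayed between those of the other groups. Trpv3 was at 0 to 12.5 CPM in young oocytes, median 5.83, and at 1.76 to 8.78 CPM in the 38, median 4.64. In the 21 it was at 0 to 1.53 CPM, with no count in 16 of them, so every one of the 21 lay below every one of the 38. At 0.177 CPM over the 21 (interval 0.103 to 0.283) against 4.94 CPM over the 38 it was 28.0-fold lower as a ratio of CPM. With 1 CPM added to each, Trpv3 had a log2 ratio of -2.34, and its levels averaged under 5 CPM. Of its 17 counts in the 21, 64.7% came from 1 oocyte, without which the level was 0.0673 CPM. Trpv3 was the only member whose ranges did not overlap between these oocytes, and 12.0% of the 11708 genes at 1 CPM or more were likewise lower and 0.47% higher without overlap. Between the 38 and the young oocytes the ranges of every member overlapped, as did those of all but 0.0924% of genes, which were higher. Against young oocytes, 11.9% of genes were lower and 0.627% higher in the 21 without overlap, and no member was, since 1 young oocyte had no Trpv3 count.

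Cacna1h (chromosome 17, 25374285 to 25433783) encodes a T-type calcium channel that helps to fill the store as mouse oocytes mature. It was at 1.09 to 26.0 CPM in young oocytes, median 8.24, and at 0.588 to 35.8 CPM in the 38, median 12.2. In the 21 oocytes 7 had no count and the highest was at 78.2 CPM, giving 52.9% of all Cacna1h counts of the 21. Their summed level was 13.3 CPM and 6.87 CPM without that oocyte, so its ratio to the 38 rested on 1 oocyte.

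Among the response genes, Camk2g (chromosome 14, 20734875 to 20794088) encodes the CaM kinase II form needed for egg activation in mice. Of the members it had the smallest coefficient of variation in young oocytes, 0.20, with levels of 276 to 625 CPM in young oocytes, median 469, and 339 to 604 CPM in the 38, median 455. In the 21 it had a median of 415 CPM, within 56.5 to 739 CPM. As a share of nuclear counts alone, that is without mitochondrially encoded genes, it was at 578 CPM in the 21 and 466 CPM in the 38. Camk2d (chromosome 3, 126596302 to 126846326), which encodes a related form, was at 0 to 1.87 CPM in young oocytes, with a count in 21 of 35 (60%, exact interval 42.1 to 76.1%), and at 0 to 2.23 CPM in the 38. In the 21, 14 had no count and the highest was at 11.7 CPM.

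Ppp3ca (chromosome 3, 136670124 to 136937727) encodes a catalytic subunit of calcineurin, a phosphatase whose role in the exit from meiotic arrest is known from frog eggs. Its level was lower in the aged sample. Young oocytes held 7.99 to 37.0 CPM, median 19.4, the 38 aged 2.51 to 21.5 CPM, median 11.1, and the 21 aged 0 to 30.7 CPM, median 6.33. The groups overlapped, yet 12 of the 38 lay below the lowest young oocyte and none above the highest.

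**Figure D2:**
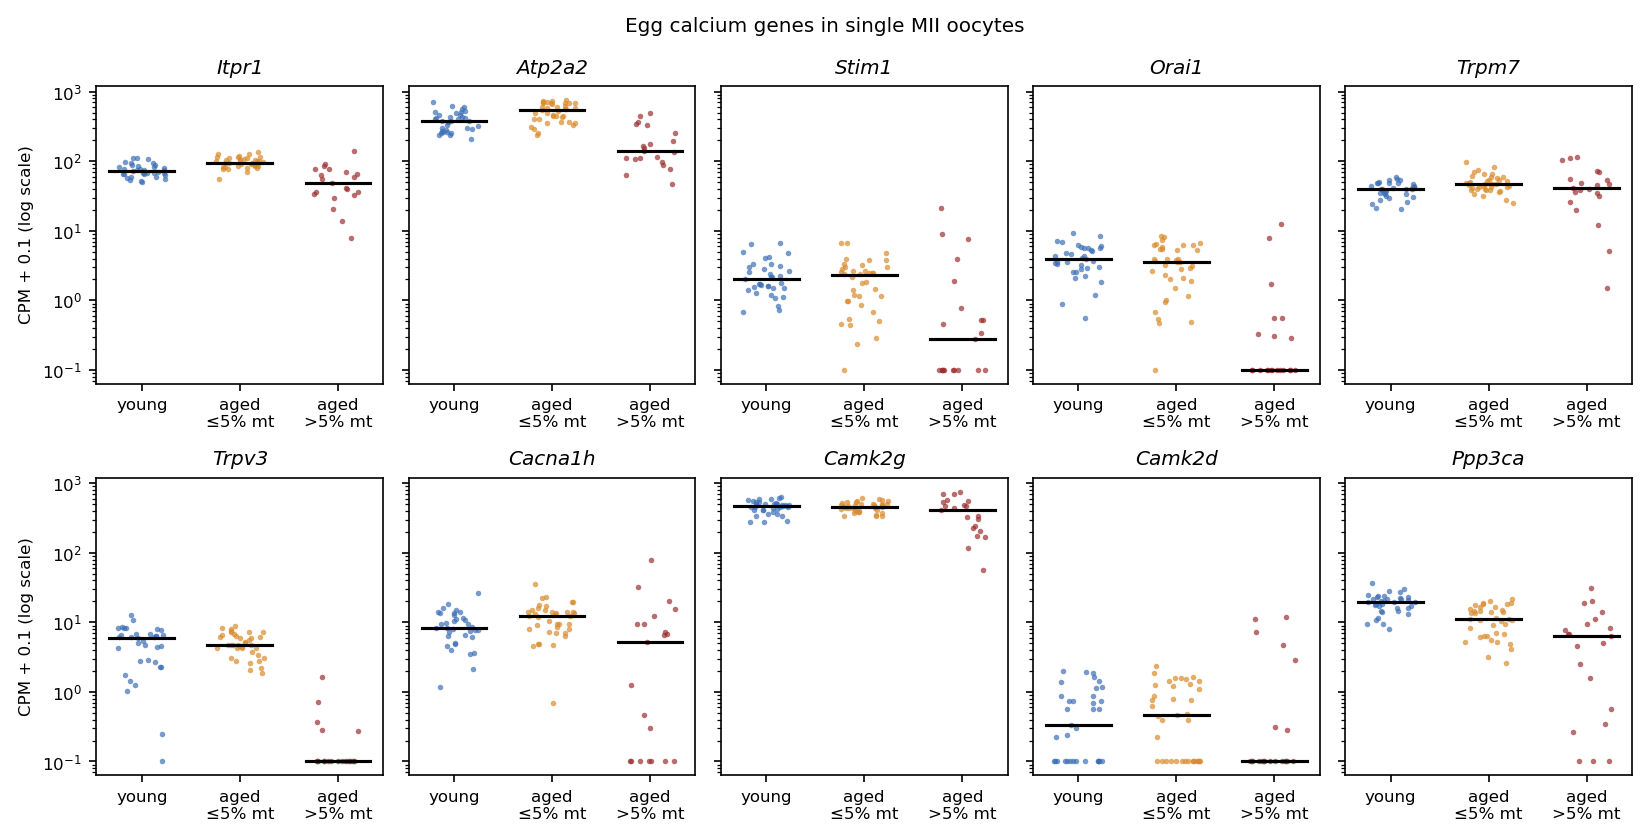
Level of each member in every single oocyte (CPM + 0.1, log axis), for 35 young oocytes and for aged oocytes with a mitochondrially encoded share of at most 5% (38) or above 5% (21). Each point is 1 oocyte and bars are medians. Young oocytes and the 38 overlap for every member, Ppp3ca is lower in the 38, and Trpv3 is at or near 0 in the 21.

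The study compared aged with young oocytes, but with a single sample for each age the difference has no replicate check and was given no test. Counts were summed over oocytes, and a gene whose 2 group levels averaged 5 CPM or more was taken as higher or lower past 1.5-fold, on the log2(CPM + 1) scale. Of 6 members at that level, Ppp3ca was lower with all 59 aged oocytes, at 10.3 CPM (exact Poisson interval 9.99 to 10.7) against 19.0 CPM (18.5 to 19.5) in young, a log2 ratio of -0.82. The same held without the 21 oocytes, at 11.3 CPM (10.9 to 11.7), a log2 ratio of -0.70 (1.68-fold lower as a ratio of the CPM without the added 1), and Ppp3ca was again the only member past the threshold, now of 7. Of all genes, 9.38% were lower past 1.5-fold with all aged oocytes and 1.87% without the 21, while 9.45% and 8.87% were higher. The intervals cover counting error only and treat PCR reads as independent.

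The other members lay within 1.5-fold of young oocytes without the 21. Atp2a2 had a log2 ratio of 0.43, Itpr1 0.37, Cacna1h 0.35, Trpm7 0.32, Camk2g -0.04 and Trpv3 -0.10, where the median of all 8413 genes was 0.08. Below 5 CPM, Orai1 was at 3.43 against 4.17 CPM, Stim1 at 2.10 against 2.36 and Camk2d at 0.614 against 0.557. Scaled to ERCC counts, which shifted the median of all genes to -0.71, all 7 members were lower in aged oocytes, with Cacna1h at -0.40, Atp2a2 at -0.41, Itpr1 at -0.45, Trpm7 at -0.50, Trpv3 at -0.76, Camk2g at -0.87 and Ppp3ca at -1.45. Only the first 4 of these lay above that median.

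Within the aged sample, the 21 oocytes of high mitochondrial share had lower CPM of the 2 store genes, while the CPM of the kinase gene stayed within 1.5-fold. Of 6 members at 5 CPM or more, Atp2a2 was lower at 197 against 512 CPM (log2 ratio -1.37) and Itpr1 at 52.9 against 96.8 CPM (-0.86). Cacna1h (0.11), Trpm7 (0.00), Camk2g (-0.18) and Ppp3ca (-0.50) stayed within 1.5-fold. Against this, 58.5% of all 8087 genes were lower past 1.5-fold and 14.8% higher, with a median log2 ratio of -0.94. Against young oocytes, the 21 were lower past 1.5-fold for Atp2a2 (1.93-fold as a ratio of CPM) and Ppp3ca (2.47-fold), 2 of 6 members, where 56.0% of 7872 genes were lower and 17.5% higher. As shares of nuclear counts, in the 21 against the 38, Itpr1 was within 1.5-fold (-0.38) and Atp2a2 stayed lower (-0.89). Trpm7 (0.48), Cacna1h (0.57) and Camk2g (0.31) were above 0, while the median of all genes was -0.48. Both Cacna1h ratios, 0.11 and 0.57, rested on 1 oocyte that gave 52.9% of its counts in the 21. From medians over oocytes the Cacna1h log2 ratio was -1.09. Scaled to ERCC counts, which shifted the median of all genes to -2.17, all 6 members were lower past 1.5-fold. On that scale 7397 of the 8087 genes were past 1.5-fold in either direction. Atp2a2 was at -2.97, Itpr1 at -2.38, Camk2g at -1.79, Ppp3ca at -1.61, Trpm7 at -1.52 and Cacna1h at -1.21.

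The wider calcium pathway was described with 142 further genes in 4 groups: IP3 production and release, store filling with extrusion and buffering, plasma membrane entry, and calmodulin with its effectors. In the 38 aged against the young oocytes, 2 of 19, 1 of 20, 0 of 6 and 1 of 11 of those at 5 CPM or more were higher past 1.5-fold and none was lower, beside the 8.87 and 1.87% of all genes. In the 21 against the 38, 11 of 18, 15 of 20, 2 of 6 and 4 of 10 were lower, and 1, 0, 0 and 4 higher, beside the 58.5 and 14.8% of all genes. The store group had a median log2 ratio of -1.75 where all genes had -0.94. Its most abundant gene per kilobase in young oocytes was Saraf, whose product turns off store-operated entry, at 315 CPM per kilobase. Saraf was at 242 to 559 CPM in the 38 and at 0 to 69.2 CPM in the 21, median 0.673.

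Other store genes, named after their values were seen, were low in the 21 as well. Rcn2, a calcium-binding protein of the endoplasmic reticulum, was at 191 to 676 CPM in the 38 and 0 to 30.2 CPM in the 21, and Stim2 at 22.9 to 60.5 and 0 to 10.3 CPM. By contrast Atp2c1, a Golgi calcium pump, had a log2 ratio of -0.13 and Mcu, the mitochondrial calcium channel, of -0.15. Trpc4 led the entry group at 21.6 CPM per kilobase in young oocytes and was at 25.04 to 96.65 CPM in the 38 and 0 to 17.8 CPM in the 21. Among effectors Wee2, a kinase that is a target of CaM kinase II, led at 393 CPM per kilobase. Its summed level was 954 CPM in the 38 and 941 CPM in the 21, but its median was 943 CPM in the 38, within 667 to 1188 CPM, and 505 CPM in the 21, within 140 to 3649 CPM. The calcineurin gene Ppp3cb was at 2.43 to 16.2 CPM in the 38 and 6.94 to 138 CPM in the 21, with a log2 ratio of 2.37. Ppp3ca stayed within 1.5-fold between these oocytes, at -0.50. Plcz1, the sperm phospholipase, had 0 counts in the 35 young oocytes, 1 count in the 38 and 0 in the 21. With 1 sample of young oocytes, no share is inferred for oocytes beyond these 35.

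**Figure D3:**
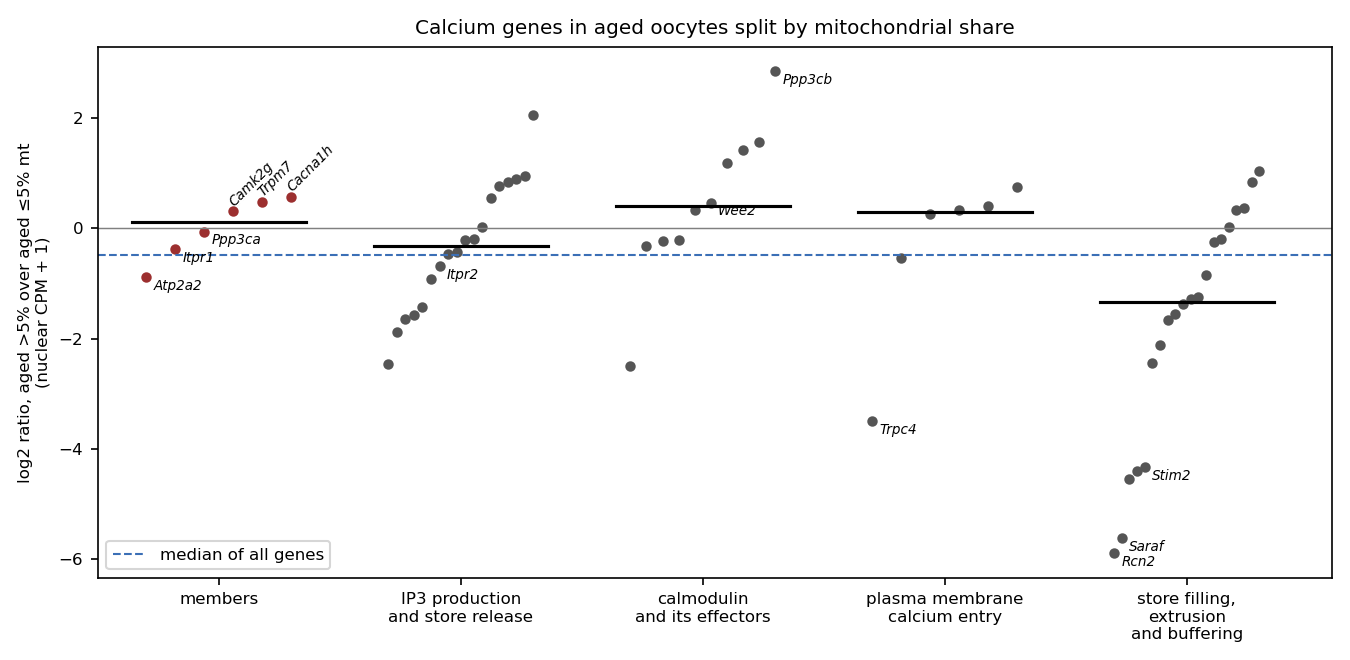
Log2 ratio of aged oocytes above against at most 5% mitochondrial share, from summed nuclear CPM + 1, for members (red) and 4 wider calcium groups (grey) at 5 CPM or more. Each point is 1 gene, black bars are group medians and the dashed line is the median of all genes (-0.48). Members lie between -0.89 and 0.57, and Rcn2, Saraf, Stim2 and Trpc4 lie far below. The highest member, Cacna1h at 0.57, rested on 1 oocyte that gave 52.9% of its counts in the oocytes above 5%.

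Across young oocytes the gene most like Itpr1 was Tacc2 among 8229 genes, with a Spearman rho of CPM of 0.87 over 35 oocytes and 0.65 over the 38 aged ones. Slc7a11 (0.84 and 0.69), Wnk2 (0.83 and 0.71), Trio (0.82 and 0.46) and Slc25a23 (0.81 and 0.54) came next. The exonic length was 10012 bases for Tacc2, 9848 for Slc7a11, 7271 for Wnk2 12380 for Trio and 3362 for Slc25a23, beside 9870 for Itpr1, where the median of the genes compared was 3482. Among members, Itpr1 went with Atp2a2 in both groups, with a rho of 0.56 in young and 0.62 in the 38 aged oocytes. Trpv3 went with Camk2g, at 0.54 and 0.52. Each value is 1 oocyte's library, so depth and composition are shared by the genes compared.

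The pools compared siPlat with siCtrl in young oocytes, and no member passed the test. In a pool, fewer oocytes giving RNA and less RNA per oocyte cannot be told apart. With edgeR's quasi-likelihood test over 11136 genes, 0 of 8 tested members had an adjusted p under 0.05, against 3.54% of all genes (2.13% higher, 1.41% lower). At an unadjusted p under 0.05 there were 3 of 8, against 18.8% of all genes. DESeq2 called 1 of the 8, with no adjusted p given for Cacna1h and Trpv3, and limma-voom called 0. Among the 11136 genes DESeq2 called 683 and limma-voom 414. The 2 pools of each group did not overlap for 5 of the 8, as for 49.4% of all genes.

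Ppp3ca had the lowest p of the 8. With siCtrl its level was 7.95 CPM in pool 1 and 9.61 CPM in pool 2, and with siPlat 18.7 and 16.9 CPM, so the groups did not overlap. The log2 fold change was 1.02 (SE 0.28, edgeR adjusted p = 0.0713), and over the other settings the adjusted p ran from 0.0333 without siPlat 2 to 0.375 without siCtrl 1. DESeq2 gave it an adjusted p of 0.0378. Its mean was 8.78 ± 1.17 CPM in siCtrl and 17.8 ± 1.28 CPM in siPlat (SD, n = 2).

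Camk2g and Trpm7 were lower in both siPlat pools without passing. Camk2g was at 35.7 and 31.2 CPM with siCtrl and 18.5 and 24.3 CPM with siPlat, a log2 fold change of -0.64 (SE 0.23, edgeR adjusted p = 0.156). Trpm7 was at 44.3 and 50.01 CPM with siCtrl and 34.0 and 28.1 CPM with siPlat, a log2 fold change of -0.60 (SE 0.20, edgeR adjusted p = 0.138). Without siPlat 2 the adjusted p of Camk2g was 0.0435 (range over settings 0.0435 to 0.576), so that call was made only with that pool left out.

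The store and remaining entry genes did not pass either. Itpr1 was at 47.0 and 43.4 CPM with siCtrl and 30.9 and 38.5 CPM with siPlat (-0.38, SE 0.20, edgeR adjusted p = 0.350), without overlap. Atp2a2 was at 132 and 101 against 104 and 134 CPM, Orai1 at 6.16 and 7.35 against 5.34 and 8.80 CPM and Trpv3 at 2.74 and 3.74 against 4.91 and 2.44 CPM, each with overlapping groups and a log2 fold change between 0.03 and 0.18. Cacna1h was at 2.91 and 2.68 against 1.47 and 2.20 CPM (-0.61, SE 0.57). Stim1, with 0, 12, 4 and 4 counts in siCtrl 1, siCtrl 2, siPlat 1 and siPlat 2, and Camk2d, with 10, 21, 0 and 4, failed the filter on low counts and were not tested.

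**Figure D4:**
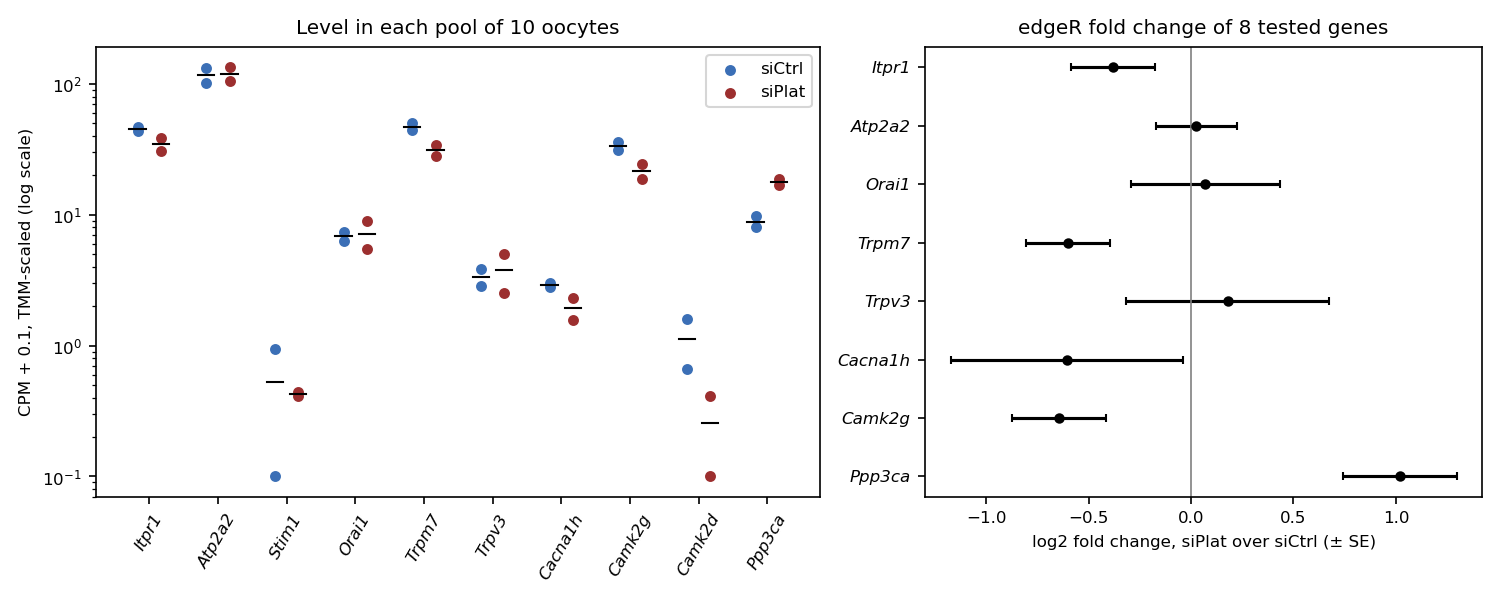
Left, level of each member in the 4 pools (TMM-scaled CPM + 0.1, log axis), with 2 points and their mean per group. Right, log2 fold change of siPlat over siCtrl with its standard error for the 8 tested members. Ppp3ca lies at 1.02, and Camk2g, Trpm7 and Cacna1h between -0.64 and -0.60.

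Of the 78 tested genes of the wider calcium groups, 2 fell, 1 rose and 75 did not pass, where 1.41% of all genes fell and 2.13% rose, so the count was near the background. The lists had a median log2 fold change of -0.11 against -0.03 over all genes. Fbxo43, which encodes the inhibitor of the anaphase-promoting complex that CaM kinase II marks for destruction, fell from 128 ± 2.77 to 77.8 ± 0.588 CPM (SD, n = 2; log2 fold change -0.72, edgeR adjusted p = 0.0415). Sdf4, a calcium-binding Golgi protein gene, fell from 31.5 ± 12.8 to 13.3 ± 1.34 CPM (-1.25, edgeR adjusted p = 0.0443). Marcks, which encodes an actin-binding protein that calmodulin and protein kinase C regulate, rose from 4.63 ± 0.656 to 11.96 ± 2.59 CPM (1.36, edgeR adjusted p = 0.0495). Each call ended with some pools left out: Fbxo43 without siCtrl 1 or siCtrl 2 (edgeR adjusted p = 0.261 and 0.232), Marcks without siCtrl 1, siCtrl 2 or siPlat 1 (0.156, 0.274 and 0.119) and Sdf4 without siCtrl 2 or siPlat 1 (0.433 and 0.0675). Sdf4 and Marcks also missed the threshold with limma-voom (adjusted p = 0.0625 and 0.0531) and with upper-quartile factors (0.0583 and 0.0525).

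Levels in siCtrl pools and young single oocytes are given side by side without a test, since they come from separate tables, and whether both were counted with the same annotation is not given in the sources. Camk2g was at 36.5 and 32.9 CPM in the 2 siCtrl pools before TMM scaling and at 471 CPM in the young single oocytes, 13.6-fold apart. Of 7936 genes in both tables at 5 CPM or more, 1.07% had a lower ratio of pools to single oocytes, and the median log2 ratio was -0.15. Trpm7 was at 45.3 and 52.7 against 40.0 CPM, Itpr1 at 48.0 and 45.7 against 74.6 CPM and Atp2a2 at 135 and 107 against 380 CPM. In the siCtrl pools Camk2g thus lay below Atp2a2, Trpm7 and Itpr1 in CPM, whereas in young single oocytes it lay above all 3. Its lead in CPM thus held for the single-oocyte table only. These pool levels are not per kilobase, the measure of the order given earlier. The exonic length was 3817 bases for Camk2g, 5277 for Atp2a2, 7107 for Trpm7 and 9870 for Itpr1. Divided by these lengths, Camk2g lay below Atp2a2 but above Trpm7 and Itpr1 in both siCtrl pools.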

How the data were processed

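Smart-seq2 libraries of MII oocytes were compared as 4 pools (2 siCtrl, 2 siPlat) and 94 single oocytes (59 aged, 35 young). The authors deposited 2 tables of raw read counts, not normalised. Per the submitters' processing notes the tools included STAR 2.7.10b and HTSeq 0.13.5, and the build was mm10; their annotation and strand setting are not given in the sources used here. The members and gene lists were chosen with earlier results of these data known.

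Pools were tested with edgeR 4.0.16 (quasi-likelihood, robust, TMM, filterByExpr at its defaults, a count of 10 and total of 15) in R 4.3.3, with Benjamini-Hochberg adjustment over all tested genes; the SE is the absolute log2 fold change over the square root of F. DESeq2 1.42.0 and limma 3.58.1 (voom) were alternatives. The test was checked on simulated counts. Single-oocyte counts were summed per group, without 92 ERCC entries, as CPM with 95% exact Poisson intervals; log2 ratios used a pseudocount of 1 CPM. Exonic lengths and positions came from GENCODE M21 (GRCm38, which mm10 names), all 10 symbols matching; promoter windows came from RefSeq, for 5 of 10 members. The single-oocyte header ended in 1 unnamed empty column. Named genes were all members, the list genes called in siPlat, the list gene with the highest level per kilobase in young oocytes and the 5 genes most correlated with Itpr1; others are marked in the text.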

Additional observations from a re-analysis of the deposited data

How the results depend on the processing

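The count of called genes in siPlat, 394 by edgeR, was 683 by DESeq2 and ran from 157 to 1145 with 1 pool left out. Called members, 0 by edgeR, were 1 by DESeq2 and 1 without the filter on low counts (Ppp3ca in each), and 0 to 2 with 1 pool left out (Ppp3ca and Camk2g without siPlat 2). Called genes of the wider lists, 3 by edgeR, were 6 by DESeq2, 1 with upper-quartile factors, 5 without the filter and 0 to 9 with 1 pool left out. With the replicate number as a block, 273 genes, 0 members and 1 list gene were called, Fbxo43 and Marcks being lost (edgeR adjusted p = 0.0872 and 0.0733); siCtrl and siPlat pools of the same number had deviations correlated at -0.10, and nothing in the labels says that a number marks a shared batch. Leaving out a pool leaves 1 library in its group, assumed to vary like the other. Across the settings the log2 fold change changed sign for Atp2a2 (-0.15 to 0.24), Orai1 (-0.32 to 0.38) and Trpv3 (-0.41 to 0.61), none of them called. For aged against young oocytes, 1 member past 1.5-fold became 6, all lower, with ERCC totals, where 7913 of 8303 genes were past it. The other 7 settings gave 1, Ppp3ca in each, with 903 to 2156 genes past it. For the split at 5%, 2 members became 3 with the split set at 20%, where Cacna1h was lower as well (log2 ratio -1.60). At that split 6150 of 7901 genes were past 1.5-fold, against 5929 of 8087 at 5%. The 2 members became 4 with medians over oocytes, 1 with nuclear totals and 6 with ERCC totals. In these settings 6445, 5814 and 7397 of 8087 genes were past 1.5-fold. Without the level minimum they became 5, of which 1 was higher, where 9653 of 54658 genes were past it. The cause of these changes was not tested. Camk2d rested on few counts, 169 summed over the 35 young oocytes, against 716 for Stim1, 1264 for Orai1 and 1628 for Trpv3. In the aged oocytes above the 5% split, Trpv3 had 17 summed counts, Orai1 96, Camk2d 206 and Stim1 232. With a single sample for each age, small differences in these members were not tested.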
